A study of Mus musculus with 63 samples.

Results

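Macrophages of old male mice that had been given interferon-gamma (IFN-γ) were compared between R1441C knock-in animals and wild-type B6 animals. The comparison holds 10 libraries of the 63 in the series, 5 of each genotype, and its members were chosen by the labels alone (sex, age, treatment and genotype). All 10 libraries came from peritoneal cells collected 72 h after an injection of 3% thioglycollate broth, which draws macrophages into the peritoneum. Adherent cells then received 100 U of IFN-γ for 18 h, per the labels' protocols, and polyadenylated RNA was sequenced as read pairs. The old animals were 18 to 21 months of age, per the study's design text. The knock-in group carries R1441C in the mouse's own Lrrk2 gene, so every cell type of the animal carries it, and the wild-type group carries no engineered allele. The labels do not say whether the knock-in allele was heterozygous or homozygous, or whether any library pooled animals. The study asked how the allele affects effector functions of myeloid cells such as the handling of antigens, uptake, the lysosome and the release of cytokines.

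The protein made from Lrrk2 joins a kinase and a GTPase domain in one chain, and it phosphorylates a set of Rab GTPases on endosomes and lysosomes. R1441C lies in the GTPase domain and is a cause of inherited Parkinson's disease. The gene is expressed in monocytes and macrophages, and IFN-γ is known to raise its level. IFN-γ signals through its receptor to factors that include the IRF family, and it turns on guanylate-binding proteins, chemokines and the machinery of antigen presentation.

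Library totals ran from 96.6 to 102 M counts. Levels are counts scaled to library size (CPM) with TMM factors, an edgeR method for differences in library composition. The macrophage genes Csf1r (1030 to 1340 CPM), Adgre1 (670 to 1050 CPM) and Lyz2 (17900 to 27100 CPM) were high in all 10 libraries. Cd79a, a B cell gene, lay between 4.92 and 26.7 CPM. Gbp2, a guanylate-binding protein induced by IFN-γ, lay between 4600 and 6660 CPM in the 10 libraries. Across the series, however, Gbp2 followed the age label and not the treatment label. It lay between 5620 and 7510 CPM in the 16 libraries labelled old and untreated and between 4370 and 6660 CPM in the 20 labelled old and IFN-treated. In the 13 libraries labelled young and IFN-treated it lay between 16.7 and 883 CPM. The treatment label therefore went against the level of an IFN-γ target gene, as it also did for Ciita (387 to 506 CPM in libraries labelled old and untreated, 7.74 to 115 CPM in those labelled young and IFN-treated). Whether age and treatment labels were exchanged was not tested, and both are used here as labels only. Both genotype groups compared here carry the same labels.

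The 5 libraries of a genotype were not equally distinct from each other. Each pair was compared by a chi-square over 13389 (knock-in) or 13618 (wild-type) genes, where a value near 1 per degree of freedom is what sampling noise gives. Wild-type libraries 1, 2 and 3 differed from each other by 12.3 to 34.1, and wild-type 4 and 5 by 11.1. Pairs across these wild-type sets differed by 86.9 to 102. Knock-in 3 and 5 differed by 15.5, and the other 9 knock-in pairs by 62.5 to 215. No pair was within sampling noise, so the main test kept 5 libraries for each genotype. A second test joined pairs under 20 and chains of such pairs, which left 4 knock-in and 2 wild-type samples. Use of immunoglobulin V segments, the gene pieces that differ between B cell clones, fell into the same sets. The correlation of V-segment use over 173 segments was 0.34 to 0.55 for the 5 pairs within these sets. It was −0.12 to 0.18 for the other 15 pairs of one genotype and −0.25 to 0.14 for the 25 pairs of different genotype. Of the 10 libraries, 8 had a correlation of 0.31 or more with a young-labelled IFN-γ male of their genotype, while knock-in 2 and 4 reached 0.17 and 0.12. The V segments of knock-in 1 correlated most with a library labelled young, knock-in male IFN-γ replicate 1 (r = 0.74). Among young-labelled males of their genotype, wild-type 4 and 5 correlated best with replicates 4 and 5 of the young-labelled wild-type IFN-γ males (r = 0.44 for each). Whether any of these libraries came from shared animals or pools was not tested. The main p-values use a spread estimated over all 63 libraries in 1 fit. That is spread between libraries and is not known to be spread between animals.

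**Figure D1:**
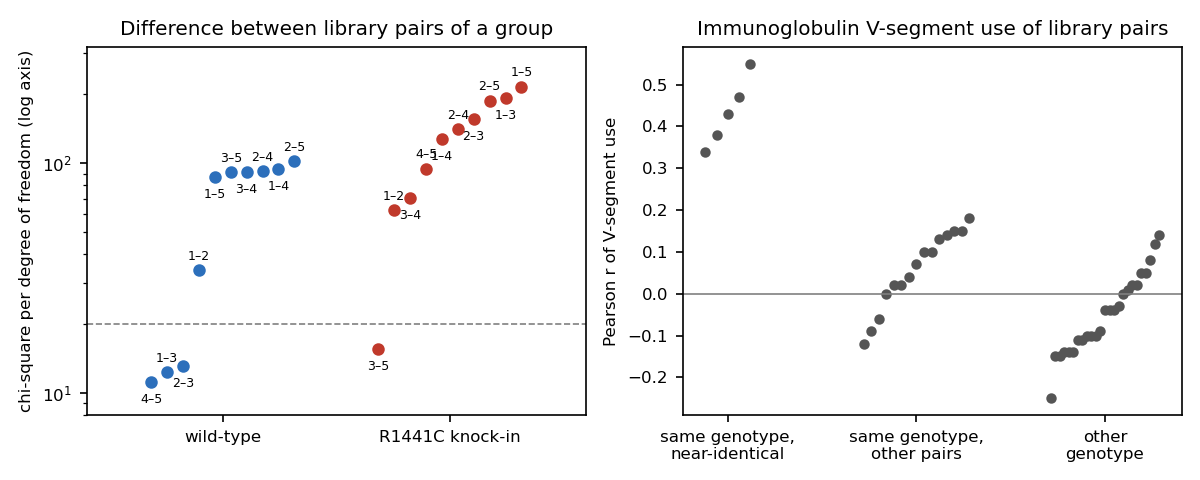
Left, chi-square per degree of freedom (log axis) for each pair of libraries within wild-type (blue) and knock-in (red), labelled by replicate numbers, with the joining threshold of 20 as a dashed line. Right, Pearson correlation of immunoglobulin V-segment use for each pair of the 10 libraries. The 5 pairs within near-identical sets (right, first column) sit at 0.34 to 0.55, above all other pairs; wild-type 1 and 2, at 34.1 on the left, were joined through wild-type 3.

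With 5 libraries a genotype, 869 genes were higher in knock-in libraries (3.92% of 22147 tested) and 442 were lower (2.00%), or 5.92% in all, by edgeR's quasi-likelihood test at a Benjamini-Hochberg adjusted p of 0.05. At an unadjusted p below 0.05 there were 5445 genes. The median log2 change over all genes tested was 0.02. Groups did not overlap for 12.8% of genes tested, with every knock-in library above every wild-type library for 1784 genes (8.06%) and below for 1054 (4.76%). The count of calls changed with how libraries were counted. With near-identical libraries joined, which left 4 samples against 2, 0 genes were higher and 8 were lower (0.0365% of 21944), while 2317 genes had an unadjusted p below 0.05. DESeq2 with all 5 libraries called 1339 higher and 786 lower. Leaving out wild-type 4 and 5, which form a set of their own, left 57 higher (0.258%) and 15 lower (0.0679%). Leaving out single libraries gave 73 to 818 genes higher and 48 to 456 lower, with totals of 178 without knock-in 2, 182 without wild-type 1 and 200 without wild-type 5. Of the 1311 genes called, 84 were called in each of the 10 fits that left out a library. The balance of directions also moved with the scaling: 66.3% of calls were higher with TMM and 40.9% with upper-quartile factors.

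**Figure D2:**
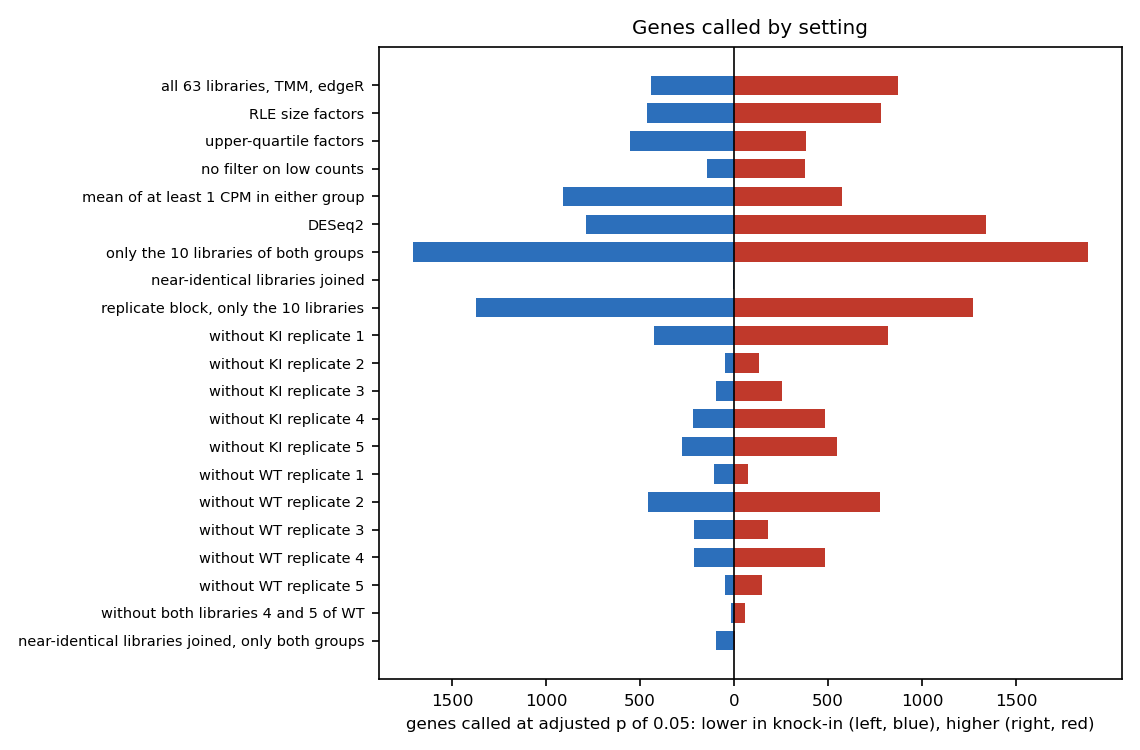
Number of genes called at an adjusted p of 0.05 under each setting, with genes lower in knock-in libraries to the left (blue) and higher to the right (red). The top bar is the main test with 869 higher and 442 lower, and joining near-identical libraries left 0 and 8.

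Lrrk2 itself did not pass the test. Its level was 120, 166, 108, 101 and 104 CPM in knock-in libraries 1 to 5 and 194, 161, 180, 150 and 159 CPM in wild-type libraries 1 to 5. Knock-in 2 lay within the wild-type range and the other 4 knock-in libraries lay below it. The log2 change was −0.49 ± 0.23 (SE, edgeR adjusted p = 0.176). Across the 8 strata of sex, age label and treatment label, the Lrrk2 change ran from −0.75 to 0.41 and none passed. The counts do not show the R1441C base change, so Lrrk2 level does not check the genotype label.

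Irak4 had the smallest p-value of all genes tested. It encodes the kinase that joins MyD88 at activated Toll-like and interleukin-1 receptors, and its gene lies within 10 Mb of Lrrk2 in the GRCm38 annotation. Irak4 was at 37.4, 38.2, 40.5, 43 and 39.3 CPM in knock-in libraries and at 56.8, 58.2, 58.5, 57.4 and 55.6 CPM in wild-type libraries. Every knock-in library was below every wild-type library, with a gap wider than the range of either group. Irak4 fell by 0.53 ± 0.06 on the log2 scale (edgeR adjusted p = 3.04e-07), and joining near-identical libraries gave −0.55 ± 0.08 (adjusted p = 0.000684). The same direction stood in all 8 strata, from −0.66 to −0.34, with groups that did not overlap in 8 and a call in 7. The males labelled young and untreated were the exception (−0.34 ± 0.08, adjusted p = 0.235).

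Slc38a1, a sodium-coupled transporter of glutamine and other neutral amino acids, had the next smallest p-value and also lies within 10 Mb of Lrrk2. Its level was 43.3, 52.3, 55.1, 49.5 and 53 CPM in knock-in libraries and 76.6, 73.8, 78.1, 79.8 and 78 CPM in wild-type libraries. The groups did not overlap. Slc38a1 fell by 0.61 ± 0.08 (edgeR adjusted p = 2.6e-05), and joining gave −0.66 ± 0.12 (adjusted p = 0.00754). Its change was negative in all 8 strata, from −0.61 to −0.12, and called in 3 of them. Of the 253 tested genes within 10 Mb of Lrrk2, 15 were higher and 11 lower, against 5.92% of all genes tested called in either direction, and Irak4 and Slc38a1 were the 2 that stayed called when libraries were joined. Rrp7a, a ribosome assembly factor in that interval, was higher with 79.2 to 86.3 CPM in knock-in and 60.4 to 67.6 CPM in wild-type libraries (log2 change 0.36 ± 0.07, adjusted p = 0.00733). Cyb5r3, a cytochrome b5 reductase, was higher by 0.32 ± 0.08 (adjusted p = 0.0163). Neither passed with libraries joined (adjusted p = 0.407 and 0.452).

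**Figure D3:**
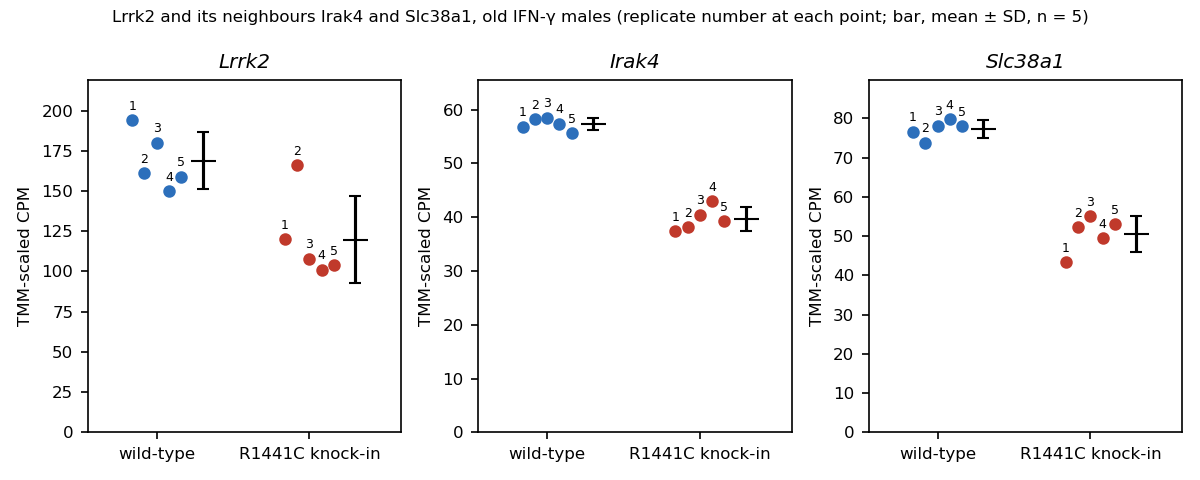
TMM-scaled CPM of Lrrk2, Irak4 and Slc38a1 in each wild-type (blue) and knock-in (red) library, numbered by replicate, with mean ± SD (n = 5 each) as black bars. Irak4 and Slc38a1 do not overlap between genotypes, while Lrrk2 of knock-in 2 (166 CPM) lies among the wild-type libraries.

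The largest falls belonged to genes that were high in wild-type 4 and 5 and low or at 0 in the other 8 libraries. Ptgds, which makes prostaglandin D2, was at 12.1 and 11 CPM in wild-type 4 and 5 and at 0.0402 CPM or less in the other 8 libraries. Agt, the precursor of angiotensin, was at 10.2 and 9.61 CPM in wild-type 4 and 5, at 0.0302 CPM or less in wild-type 1 to 3, and had no count in any knock-in library. Against a floor of 3 counts over the knock-in group, its wild-type mean was at least 625-fold higher. Akr1cl, an aldo-keto reductase, had no knock-in count either and was at 5.5 and 5.07 CPM in wild-type 4 and 5, which makes the wild-type mean at least 337-fold higher. Both bounds are set by wild-type 4 and 5. Insl3, a peptide hormone of the testis made by Leydig cells, was at 10.6 and 10.4 CPM there and between 0.402 and 1.13 CPM in the other 8.

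Ccn5 (3.21 and 3.29 CPM), Aldh1a1 (15.9 and 14.5 CPM), Acsbg1 (3.78 and 3.24 CPM) and Mgarp (2.54 and 3.05 CPM) showed the same split. Of the 442 genes called lower, 57 were more than 2-fold higher in both wild-type 4 and 5 than in any of the other 8 libraries. Ptgds, Ccn5, Agt, Acsbg1, Akr1cl and Parm1 make up, with Irak4 and Slc38a1, the 8 genes called when libraries were joined. Without wild-type 4 and 5 none of these 6 passed, at adjusted p-values of 0.515 (Ptgds), 0.411 (Ccn5), 0.587 (Agt), 0.454 (Acsbg1), 0.223 (Akr1cl) and 0.281 (Parm1), and the change of Insl3 became 0.70 (adjusted p = 0.662). In the whole series, 2 further libraries had these levels, replicates 4 and 5 of the wild-type males labelled young and IFN-treated, with 11.9 and 11.3 CPM of Insl3 and 9.86 and 10.6 CPM of Agt. The highest Agt level in the 59 libraries outside these 4 was 0.0303 CPM.

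A list of 10 Leydig cell genes, put together after these values were seen, summed to 25.7 and 23.7 CPM in wild-type 4 and 5 and to between 7.35 and 10.5 CPM in the other 8. Insl3 is on that list, and the 9 genes without it summed to 15.1 and 13.2 CPM against 6.95 to 9.32 CPM. Its member Nr5a1, the steroidogenic factor, was at 0.891 and 0.793 CPM in wild-type 4 and 5 and had no count in the other 8 libraries. Cyp17a1, which makes androgen precursors, was at 0.0819 and 0.0407 CPM there and at 0.0208 CPM or less in the other 8. Hsd3b1, of steroid synthesis, was at 0.154 and 0.112 CPM there and at 0 in the other 8. Other genes of these cells split less or not at all. Star (3.91 and 3.66 CPM) and Cyp11a1 (2.12 and 1.37 CPM) were higher there than in the other 8. In the 59 libraries outside these and young-labelled wild-type IFN-γ males 4 and 5, however, they reached 5.65 and 7.5 CPM. Those young-labelled libraries 4 and 5 had 6.97 CPM of Star each, and 3.19 and 3.06 CPM of Cyp11a1. Lhcgr, at 0.195 and 0.132 CPM there, reached 0.212 CPM in wild-type 1 to 3. Genes of Sertoli and germ cells, 8 chosen in the same way, summed to 13.4 CPM in each of wild-type 4 and 5. In the other 8 libraries they summed to at most 5.59 CPM, and 3 of the 7 tested had a positive change. Markers of mesothelium and fibroblasts moved with the same libraries, at 238 CPM in each against 64.9 to 171 CPM in the other 8. The part of such cells in the falls was not tested, and in bulk RNA fewer cells of a type cannot be told apart from less RNA in each cell.

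**Figure D4:**
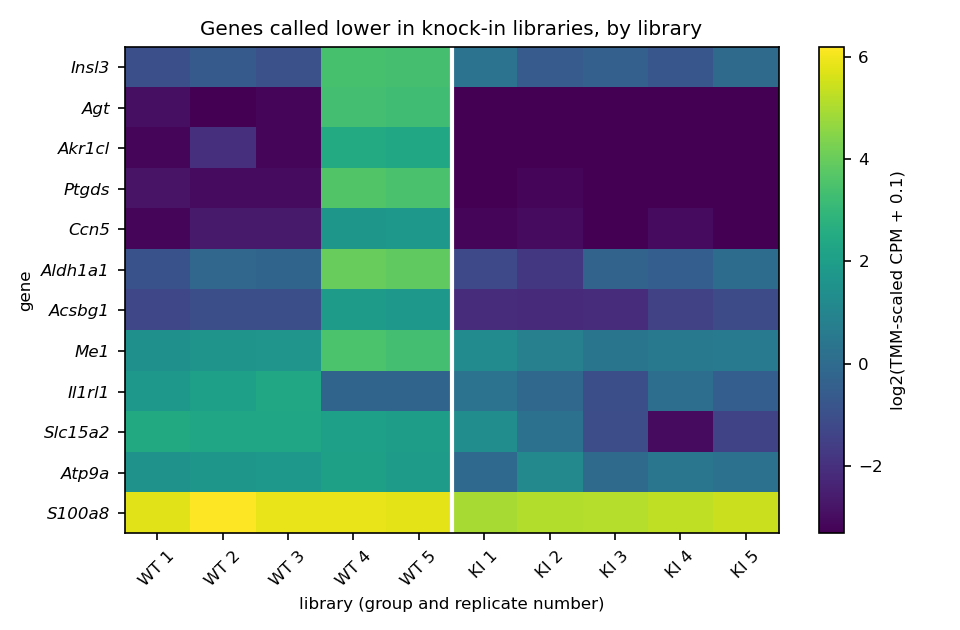
Level of 12 genes called lower in knock-in libraries, as log2(TMM-scaled CPM + 0.1) by colour, in the 5 wild-type (left) and 5 knock-in (right) libraries. Insl3 to Me1 are high in wild-type 4 and 5, Il1rl1 is high in wild-type 1 to 3, and Slc15a2, Atp9a and S100a8 are higher in all 5 wild-type libraries.

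Some falls were shared by both wild-type sets. S100a8, a calcium-binding alarmin of neutrophils and monocytes, was at 31.2, 33.9, 35, 39.2 and 43.6 CPM in knock-in libraries and at 54.6, 73.2, 58.8, 58.9 and 55.7 CPM in wild-type libraries. The groups did not overlap. S100a8 fell by 0.72 ± 0.16 (edgeR adjusted p = 0.00925) and stayed called in each fit without a library, with an adjusted p of 0.22 when libraries were joined. The 17 neutrophil markers together, which include S100a8, summed to 296 to 350 CPM in knock-in and 308 to 346 CPM in wild-type libraries, and S100a8 was the single call among the 12 tested.

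Slc15a2, a transporter of small peptides, was at 2.44, 1.08, 0.376, 0.0208 and 0.289 CPM in knock-in libraries and between 3.81 and 5.39 CPM in wild-type libraries. It varied over a wide range among knock-in libraries and still lay below all wild-type libraries. Slc15a2 fell by 2.44 ± 0.65 (adjusted p = 0.0246, and 0.452 with libraries joined). Aph1b, a subunit of gamma-secretase, was at 7.19 to 9.44 CPM against 11.3 to 12.1 CPM and fell by 0.46 ± 0.10 (adjusted p = 0.00756, and 0.227 joined). Il1rl1, the interleukin-33 receptor of mast cells, basophils and lymphoid cells, was at 3.3, 4.02 and 5.16 CPM in wild-type 1, 2 and 3 but at 0.737 and 0.732 CPM in wild-type 4 and 5, within the knock-in range of 0.387 to 1.13 CPM. The 13 mast cell and basophil markers summed to 30.6 to 45.4 CPM in wild-type 1 to 3, 5.51 and 5.82 CPM in wild-type 4 and 5, and 4.12 to 21.4 CPM in knock-in libraries, with Mcpt1 and Mcpt8 at 0 in all 10. Their part in the fall of Il1rl1 was not tested.

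The 12 largest rises were taken among called genes at 1 CPM or more, and their knock-in means ran from 1.16 CPM (Zfp972) to 35 CPM (Gprc5b). Zfp972, a zinc finger gene, was at 0.854, 1.21, 1.31, 1.23 and 1.18 CPM in knock-in and at 0.563, 0.272, 0.439, 0.522 and 0.335 CPM in wild-type libraries. The groups did not overlap, and Zfp972 rose by 1.44 ± 0.28 (edgeR adjusted p = 0.00586). Prss46, a serine protease gene, was at 1.55 to 2.69 CPM against 0.773 to 0.83 CPM (log2 change 1.39 ± 0.35, adjusted p = 0.0185). Ifitm1, an interferon-induced membrane protein, was at 1.3 to 2.29 CPM against 0.585 to 1.07 CPM (1.13 ± 0.25, adjusted p = 0.00925). Hyal1, a lysosomal hyaluronidase, was at 7.18 to 12.2 CPM against 3.76 to 5.66 CPM (0.97 ± 0.26, adjusted p = 0.0249). Gprc5b, an orphan receptor, was at 40.3, 41.3, 36.9, 25.5 and 30.9 CPM against 15.9, 16.2, 14.5, 23.1 and 24.6 CPM (0.89 ± 0.26, adjusted p = 0.0365). The gap for Gprc5b was narrow, since wild-type 5 lay just under knock-in 4. Sez6l2, Ccdc39, Hist1h2bg, Mid1, Tmem171, Cdk18 and Fgfbp3 rose by 0.64 to 1.00. Wild-type and knock-in libraries did not overlap for any of these 12 but Fgfbp3.

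Besides Zfp972, 7 genes made up the 8 rises with the smallest p-values, and their changes were between 0.22 and 0.42. Abcf3, an ATP-binding protein linked to translation and antiviral defence, was at 45.1 to 48.3 CPM in knock-in and 38.8 to 41.4 CPM in wild-type libraries, a change of 0.22 ± 0.04 (adjusted p = 0.00495). Pip4k2c, a phosphoinositide kinase, was at 81.7, 92.6, 87.8, 82.4 and 82.9 CPM against 64.1, 69.1, 67.9, 70.9 and 68 CPM (0.33 ± 0.06, adjusted p = 0.00514). Pgap3, which remodels GPI anchors, rose by 0.42 ± 0.08 (adjusted p = 0.00439). Zfp346, Sugp1, Nmd3 and Ncoa5 rose by 0.24 to 0.33. All 7 were called in each of the 10 fits without a library, and none passed with libraries joined, where adjusted p-values ran from 0.286 (Pgap3) to 0.385.

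Among genes at 10 CPM or more in either group, 8.76% were called higher and 2.01% lower, their median log2 change was 0.08, 5498 of 8459 had a positive change, and all knock-in libraries lay above all wild-type libraries for 17.9%. Gene lists below that hold genes of this level are read against these shares. Lists with many genes under it, such as the T and NK cell markers, are read against all genes tested (3.92% higher, 2.00% lower). Irak4 was the single list member, of the 50 lists used, that stayed called when near-identical libraries were joined. Every other list call below was therefore lost there, with the adjusted p given beside it or for its group.

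Of 39 IFN-γ response genes, 31 had a positive change, the median was 0.17, and 2 were called higher (3 by DESeq2). All knock-in libraries lay above all wild-type libraries for 5 of the 39 and below for 3. Knock-in 1 and 2 stood apart for the members Nos2 and Cxcl9. Nos2 was at 400, 470, 96.1, 68 and 85 CPM in knock-in and at 100 to 109 CPM in wild-type libraries. Cxcl9 was at 2890, 3350, 1370, 1420 and 1370 CPM against 1080 to 1930 CPM. Irf8, a transcription factor of macrophages and dendritic cells, was at 818, 877, 985, 765 and 936 CPM in knock-in and at 579, 596, 596, 714 and 691 CPM in wild-type libraries. The groups did not overlap, with wild-type 4 and 5 nearest to the knock-in libraries. Irf8 rose by 0.46 ± 0.12 (edgeR adjusted p = 0.0182, and 0.458 with libraries joined). Ifngr2, the signalling chain of the IFN-γ receptor, rose by 0.19 ± 0.06 from 169 to 190 CPM in wild-type to 185 to 214 CPM in knock-in libraries (adjusted p = 0.0347, joined 0.479).

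Of 35 type I interferon-stimulated genes, 31 had a positive change, with a median of 0.25 and 3 called higher. Bst2, or tetherin, which holds budding viruses at the membrane, was at 314 to 348 CPM in knock-in and 255 to 287 CPM in wild-type libraries (0.29 ± 0.08, adjusted p = 0.0342, joined 0.458). Irf9, the DNA-binding part of the factor ISGF3, rose by 0.21 ± 0.06 (adjusted p = 0.0361, joined 0.463). Rsad2, or viperin, was at 80.8, 66.8, 54.2, 54.9 and 47.9 CPM against 39.9, 41.8, 40.9, 48.6 and 50.1 CPM. Its groups overlapped, since knock-in 5 lay below wild-type 4 and 5, and the change was 0.46 ± 0.14 (adjusted p = 0.0448, joined 0.458). The share called, 2 of 39 and 3 of 35, was near the 8.76% of genes of this level. Irf8 and Bst2 are also on the list of 14 dendritic cell genes, of which 13 had a positive change (median 0.39) and 3 were called, the third being Flt3, a growth factor receptor of dendritic cell precursors (1.01 ± 0.32, adjusted p = 0.0458, joined 0.455). That list summed to 2770 to 3280 CPM in knock-in and 2460 to 2810 CPM in wild-type libraries. The sum includes Irf8 (mean 876 against 635 CPM) and Bst2 (327 against 267 CPM), so it is not separate from their calls. The part of dendritic cells in these rises was not tested. All 13 genes tested of the interferon-induced DNA sensor list had a positive change (median 0.19). None passed by edgeR or DESeq2, with 3 at an unadjusted p below 0.05. Ifi207, at 231 to 267 CPM against 181 to 227 CPM, had a change of 0.32 ± 0.12 (adjusted p = 0.0856).

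The 250 bases before the start of 3 of these 5 called genes hold a letter match to a binding motif of interferon signalling, and they are printed to show the sequence before called genes of both interferon lists. They come from the RefSeq promoter table (build GRCm38.p6, on the strand of the gene), in which all 5 genes were found. Capitals mark matches on either strand to TTCNNNGAA, the gamma-activated site, or to GAAANNGAA (TTCNNTTTC on the other strand), the core of the interferon-stimulated response element. Bst2 (chr8:71537473-71537722, minus strand) has 1 match to the first motif and 2 to the second, which overlap. Irf8 (chr8:120736108-120736357, plus strand) has 2 matches to the first, and Rsad2 (chr12:26456453-26456702, minus strand) has 1 to the second.
Bst2: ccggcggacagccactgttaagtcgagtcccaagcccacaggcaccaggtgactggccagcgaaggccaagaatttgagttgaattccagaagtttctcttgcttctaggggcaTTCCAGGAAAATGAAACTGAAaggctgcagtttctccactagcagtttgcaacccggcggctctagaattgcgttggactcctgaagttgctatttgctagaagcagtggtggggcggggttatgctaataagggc
Irf8: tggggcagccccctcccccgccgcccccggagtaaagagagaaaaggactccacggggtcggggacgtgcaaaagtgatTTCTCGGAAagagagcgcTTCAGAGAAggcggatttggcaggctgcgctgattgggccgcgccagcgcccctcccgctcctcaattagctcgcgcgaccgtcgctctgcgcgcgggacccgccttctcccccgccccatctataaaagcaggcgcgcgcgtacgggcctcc
Rsad2: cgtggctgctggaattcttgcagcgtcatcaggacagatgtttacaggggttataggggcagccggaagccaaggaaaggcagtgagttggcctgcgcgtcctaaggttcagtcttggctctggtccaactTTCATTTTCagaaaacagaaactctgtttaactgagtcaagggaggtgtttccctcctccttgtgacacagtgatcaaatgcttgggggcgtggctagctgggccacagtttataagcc
Of 27025 such windows in the table, 7.18% hold the first motif and 7.16% the second. Neither motif was found in the windows of Ifngr2 and Irf9. The Irf9 window lies inside the gene as the GENCODE M21 annotation of GRCm38 places it. The bases before that annotated start of Irf9 were therefore not searched. A match is a description of the letters and shows no binding.

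Ifi30, or GILT, the thiol reductase that unfolds antigens in the lysosome, was the 1 call of 15 genes for MHC class II. It was at 991, 1240, 1240, 997 and 1210 CPM in knock-in and at 709, 803, 744, 883 and 774 CPM in wild-type libraries. Every knock-in library was higher, and Ifi30 rose by 0.54 ± 0.11 (adjusted p = 0.00756). It stayed called in each fit without a library and without both wild-type 4 and 5 (adjusted p = 0.038), but not with libraries joined (0.444). For MHC class I, 20 of 23 genes had a positive change (median 0.17) and 2 were called. H2-T23, the class Ib molecule Qa-1, was at 2000 to 2530 CPM against 1650 to 1960 CPM (0.34 ± 0.10, adjusted p = 0.0373, joined 0.488). Tapbp, or tapasin, which loads peptides, was at 1610 to 2100 CPM against 1280 to 1510 CPM (0.35 ± 0.11, adjusted p = 0.049, joined 0.483). Of 22 costimulation and checkpoint genes, edgeR called none (4 at an unadjusted p below 0.05) and DESeq2 1. Of 26 chemokines, edgeR called none (7 unadjusted) and DESeq2 3. The chemokine nearest to the threshold was Cxcl5, at 0.0744 to 0.288 CPM against 0.0717 CPM or less (1.98 ± 0.66, adjusted p = 0.0564). Of 20 cytokines tested, Tgfb1 was higher, at 294 to 345 CPM against 236 to 270 CPM (0.32 ± 0.09, adjusted p = 0.0305, joined 0.467).

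Of 50 lysosome genes, 44 had a positive change, the median was 0.18, and 4 were higher and 1 lower by edgeR. DESeq2 called 15 of the 50, and 27 had an unadjusted edgeR p below 0.05. All knock-in libraries lay above all wild-type libraries for 12 of the 50, against 17.9% of genes of this level. Grn, or progranulin, which supports lysosomal enzymes, was at 2450, 2670, 3000, 2720 and 2800 CPM in knock-in and at 2150, 2140, 2130, 2350 and 2280 CPM in wild-type libraries. Without overlap between the groups, Grn rose by 0.30 ± 0.09 (adjusted p = 0.0324, joined 0.469). Gaa, the acid alpha-glucosidase, rose by 0.25 ± 0.07 (adjusted p = 0.035, joined 0.486), with knock-in 4 (209 CPM) just under wild-type 4 and 5 (210 and 211 CPM). Laptm5, a lysosomal membrane protein of blood cells, was at 1770 to 2770 CPM against 1610 to 1990 CPM (0.36 ± 0.11, adjusted p = 0.0443, joined 0.536). Tmem106b, a lysosomal membrane protein that acts on acidification, fell by 0.31 ± 0.09, from 84.5 to 102 CPM in wild-type to 63.4 to 76.4 CPM in knock-in libraries (adjusted p = 0.0384, joined 0.452). Ctsz, the carboxypeptidase cathepsin Z, was the 1 call of 17 cathepsin genes, at 2600 to 3330 CPM against 2210 to 2280 CPM (0.36 ± 0.11, adjusted p = 0.046, joined 0.475).

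The vacuolar ATPase pumps protons into lysosomes. Of its 18 genes, 15 had a positive change (median 0.24), 3 were called higher, and 10 did not overlap with all knock-in libraries above. Atp6v1d, a subunit of the central stalk, was at 139, 166, 162, 149 and 159 CPM in knock-in and at 115, 122, 124, 131 and 121 CPM in wild-type libraries. Every knock-in library was higher, and Atp6v1d rose by 0.34 ± 0.08 (adjusted p = 0.0153, joined 0.452). Atp6v1f, also of the stalk, rose by 0.39 ± 0.11 (adjusted p = 0.0244, joined 0.457) and Atp6v0b, of the membrane ring, by 0.30 ± 0.09 (adjusted p = 0.042, joined 0.472). Leaving out wild-type 4 and 5 left none of the 18 called, with a median of 0.28.

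Of 28 autophagy genes, 4 were higher, with a median over the list of 0.09. Sqstm1, or p62, the receptor that brings cargo to autophagosomes, was at 462 to 621 CPM against 369 to 429 CPM (0.38 ± 0.11, adjusted p = 0.0324, joined 0.458). Gabarapl1 and Gabarap, both members of the ATG8 family that coats the autophagosome, rose by 0.45 ± 0.12 (adjusted p = 0.0282) and by 0.31 ± 0.10 (adjusted p = 0.0427). Atg3, the enzyme that attaches ATG8 proteins to lipid, rose by 0.26 ± 0.06 (adjusted p = 0.0185), with 102 to 111 CPM against 85.3 to 94.7 CPM. Of 32 genes of the LRRK2 and Rab pathway, 3 Rab GTPases were higher, and the list median was 0.09. For the LRRK2 and Rab list, this share and median are near the values for genes at 10 CPM or more (8.76% called higher, median 0.08). The autophagy median is also near 0.08, but the share called, 4 of 28, is larger. DESeq2 called 7 of the 28 autophagy genes, and 11 had an unadjusted edgeR p below 0.05. For the 32 of the LRRK2 and Rab list these counts were 5 and 13. Rab8a and Rab35, which are substrates of LRRK2, were at 138 to 156 CPM against 127 to 136 CPM (0.20 ± 0.06, adjusted p = 0.0497) and at 87.5 to 93.6 CPM against 78.6 to 81.9 CPM (0.20 ± 0.05, adjusted p = 0.0248). Rab5c, a GTPase of early endosomes, was at 647 to 675 CPM against 526 to 547 CPM (0.29 ± 0.08, adjusted p = 0.0285). Joined adjusted p-values of these 7 genes ran from 0.452 (Atg3) to 0.484 (Gabarap).

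Toll-like receptor signalling had calls in both directions. Besides the fall of Irak4, Myd88, the adaptor that Irak4 binds, was at 106, 110, 106, 105 and 105 CPM in knock-in and at 88.5, 91.2, 92, 84.7 and 79.6 CPM in wild-type libraries. Myd88 did not overlap and rose by 0.29 ± 0.07 (adjusted p = 0.0182, joined 0.452). Ticam1, or TRIF, the adaptor of TLR3 and TLR4, rose by 0.27 ± 0.07 (adjusted p = 0.0274, joined 0.458). Tlr7, the sensor of single-stranded RNA, was at 55.7, 57.3, 53.6, 69.4 and 51.9 CPM against 93.5, 78.5, 83, 69.6 and 66.8 CPM and fell by 0.44 ± 0.14 (adjusted p = 0.0476, joined 0.466). Its groups overlapped at knock-in 4. The list of 29 genes had a median of 0.03 with 2 called each way.

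Stress and metabolic lists held few calls. Atf3, a stress-induced transcription factor, was at 287 to 312 CPM against 206 to 234 CPM (0.45 ± 0.13, adjusted p = 0.0332, joined 0.458). Xbp1, of the unfolded protein response, rose by 0.21 ± 0.06 and Hspa8, a constitutive chaperone, by 0.26 ± 0.07 (adjusted p = 0.0293 and 0.0273, joined 0.463 and 0.461). Ftl1, the ferritin light chain, was at 4120, 5170, 5810, 5520 and 5650 CPM against 3820, 3750, 3800, 3800 and 3080 CPM (0.53 ± 0.16, adjusted p = 0.0426, joined 0.466). Of the 24 glycolysis and hypoxia genes, 22 had a positive change (median 0.26). None passed by edgeR or DESeq2, with 11 at an unadjusted p below 0.05. Gapdh was at 1900 to 2330 CPM against 1490 to 1710 CPM (0.34 ± 0.13, adjusted p = 0.0873). Of the 34 proliferation genes, 10 had a positive change. By edgeR none passed (2 unadjusted), and by DESeq2 1 did. Mki67, a marker of cycling cells, was at 11.1 to 15.9 CPM against 20.3 to 22.8 CPM (−0.74 ± 0.25, adjusted p = 0.0568). Pcna, also on that list, went the other way, at 157 to 191 CPM against 138 to 150 CPM (0.32 ± 0.13, edgeR adjusted p = 0.0971).

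By edgeR no gene passed among 18 complement genes (4 unadjusted, 1 by DESeq2), 20 Fc and scavenger receptors (2 unadjusted, 0 by DESeq2) or 13 macrophage identity genes (3 unadjusted, 1 by DESeq2). C1qb was at 1760, 1570, 2110, 1930 and 2190 CPM against 1360, 1540, 1400, 1390 and 1350 CPM (0.44 ± 0.15, adjusted p = 0.0573), and C1qa had a change of 0.48 ± 0.18 (adjusted p = 0.0865). Summed markers of macrophage subsets differed in level. The 24 genes of large peritoneal macrophages summed to 5200 to 6150 CPM in knock-in and 4370 to 5020 CPM in wild-type libraries, without overlap, with Laptm5 called higher and Apoc1 lower. As a set they did not rise: 11 of the 24 had a positive change, and the median was −0.09. Abundant members weigh most in the sum, among them Laptm5 at 1770 to 2770 CPM against 1610 to 1990 CPM. The 17 genes of monocyte-derived macrophages summed to 753 to 1090 CPM against 1060 to 1200 CPM, 3 of them had a positive change (median −0.30), and none passed by edgeR (3 unadjusted) or DESeq2. The part of these subsets in the calls was not tested. Markers of lymphocytes overlapped between the groups. Summed B cell markers ran from 362 to 947 CPM in knock-in and 376 to 514 CPM in wild-type libraries. Blnk, an adaptor of B cells that macrophages also express, was the 1 call of 27 B cell genes (100 to 110 CPM against 85.4 to 93.2 CPM, adjusted p = 0.0214, joined 0.458). T and NK cell markers summed to 48.6 to 70.3 CPM against 35.1 to 63 CPM, with 0 of 32 called by edgeR or DESeq2 and 0 at an unadjusted p below 0.05.

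The direction of the change followed the length of the gene. Genes at 10 CPM or more were put in 5 bins of equal number by exonic length, taken from the GENCODE M21 annotation of GRCm38 for 8434 of 8459 genes. In the shortest bin, of up to 2.56 kb, the median log2 change was 0.16, with 11.7% of 1687 genes higher and 1.13% lower. In the longest bin, of 7.91 kb and more, the median was −0.11, with 2.55% higher and 6.16% lower. Measured from the mean of the 10 libraries, the median deviation of the long bin minus the short bin was −0.14, −0.09, −0.12, −0.09 and −0.23 in knock-in libraries 1 to 5 and 0.22, 0.01, 0.14, 0.12 and 0.17 in wild-type libraries 1 to 5. The groups did not overlap, with wild-type 2 nearest to the knock-in libraries. The part of gene length in the calls above was not tested.

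**Figure D5:**
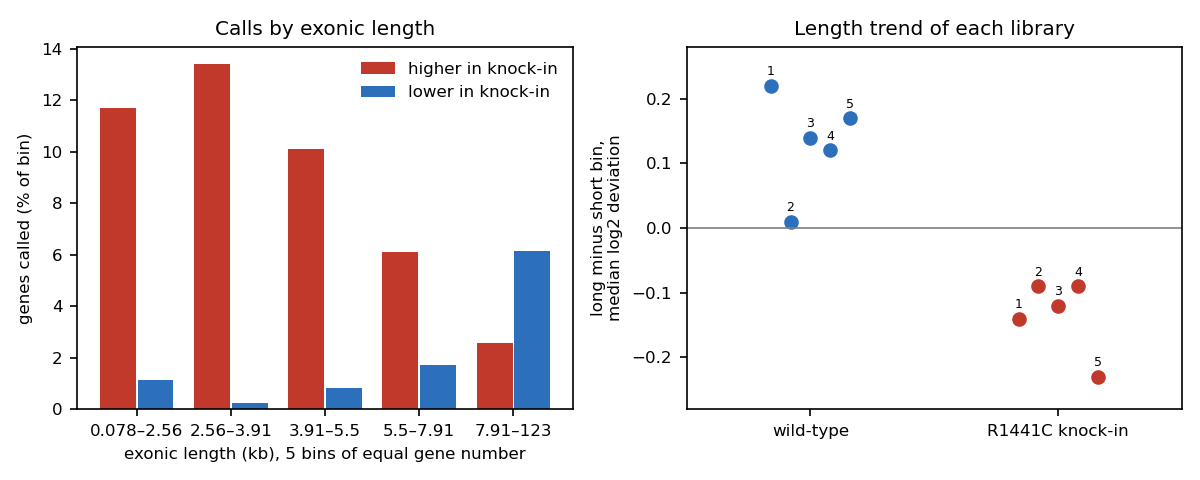
Left, share of genes called higher (red) or lower (blue) in knock-in libraries in 5 bins of exonic length. Right, for each library, the median log2 deviation of the longest bin minus that of the shortest bin, by genotype and replicate number. Calls shift from higher (11.7% of the shortest bin) to lower (6.16% of the longest), and all 5 knock-in libraries lie below all 5 wild-type libraries.

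Whether the genotype change differed by sex or by label was tested with interaction terms in the same fit. Between males and females labelled old and IFN-treated, 4 genes differed (0.0181% of 22147), with 1694 at an unadjusted p below 0.05, and none passed when libraries were joined. Atp9a, a flippase of endosomal membranes, is the protein-coding gene of these 4, beside an immunoglobulin V segment and 2 unnamed genes. In males it was at 0.864, 2.14, 0.873, 1.24 and 1.09 CPM in knock-in and 2.87, 3.18, 3.24, 4.11 and 3.67 CPM in wild-type libraries, and it fell by 1.46 ± 0.32 (edgeR adjusted p = 0.00936). In females it was at 2.27 to 5.75 CPM in knock-in and 1.17 to 3.51 CPM in wild-type libraries, a change of 0.95 ± 0.31 (adjusted p = 0.0635). The male minus female difference was −2.41 ± 0.45 (adjusted p = 0.0129). The Atp9a fall was not common to all males. Its change was −1.59 ± 0.39 in males labelled young and IFN-treated (edgeR adjusted p = 0.173). In males labelled untreated it was 0.40 ± 0.40 (old) and 0.23 ± 0.40 (young). Knock-in females 4 and 5 stood apart, with Xist, the RNA of the inactive X chromosome, at 1.69 and 1.55 CPM against 173 to 208 CPM in the other 3. Ddx3y, a gene of the Y chromosome, was at 0.624 and 0.601 CPM in knock-in females 4 and 5. In the males of the series it lay between 33.9 and 67.9 CPM. The reason for the low Xist was not tested. Without knock-in females 4 and 5 the male minus female difference of Atp9a was −2.73 ± 0.46 (adjusted p = 0.00554). Against males labelled young and IFN-treated, 0 genes differed by edgeR (906 at an unadjusted p below 0.05) and 1 by DESeq2. Libraries of the knock-in males titled old and untreated, 3 in number, also carry an IFN-γ treatment tag in their labels, so the next comparison is of titles only. Against males labelled old and untreated, 0 differed by edgeR (3692 unadjusted) and 89 by DESeq2. For Irak4 these differences were 0.02 ± 0.09 by sex, −0.13 ± 0.09 by age label and −0.06 ± 0.10 by treatment label. For Atp9a they were 0.13 ± 0.48 by age label and −1.86 ± 0.52 by treatment label (edgeR adjusted p = 0.123 for the latter).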

How the data were processed

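The authors deposited whole-number read counts for 56748 genes in 63 libraries of polyadenylated RNA. Per the submitters' processing notes, the tools included STAR 2.7.9a and DESeq2 1.40.2 and the genome was GRCm39. The read counter, annotation and strand setting were not given in the sources used here, so overlapping and antisense genes cannot be told apart. Symbols for 52073 genes and exonic lengths came from GENCODE M21 (GRCm38), an earlier build, so gene coordinates are not given. The deposited FPKM table was not used.

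Genes were kept by filterByExpr of edgeR 4.0.16 (R 4.3.3), which left 22147. A quasi-likelihood fit of all 63 libraries with TMM factors and 1 coefficient for each of 16 groups gave the genotype contrast, with Benjamini-Hochberg adjustment over all genes and calls at 0.05. DESeq2 1.42.0, other scalings and filters, libraries left out, a replicate block and near-identical libraries joined were the alternatives. The joining threshold of 20 was chosen after the data were seen.

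Named genes were Lrrk2, the 12 largest called changes each way at 1 CPM or more, the 8 smallest p-values each way, up to 4 called genes of each list (otherwise 2 by p) and of the 10 Mb around Lrrk2, and interaction calls. Not all genes this rule names are reported here, and Parm1 and the Leydig cell genes were named after their values were seen. The members, lists and rules were chosen with earlier results of these data known.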

Additional observations from a re-analysis of the deposited data

Results flagged for a closer look

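For the 93 genes considered for the text, the 5 libraries of each genotype were checked for a value far from the other 4 (Dixon's test). This flagged 9 of 186 groups, and chance flags about 1 in 20. Knock-in 1 stood low for Tmem106b (63.4 CPM, others 73.8 to 76.4) and Rab35 (87.5 CPM, others 91.9 to 93.6). Knock-in 2 stood high for Myd88 (110 CPM, others 105 to 106). Wild-type 2 stood high for S100a8 (73.2 CPM, others 54.6 to 58.9) and C1qb (1540 CPM, others 1350 to 1400). Wild-type 5 stood low for Ftl1 (3080 CPM, others 3750 to 3820). The other 3 rest on a few reads in 1 knock-in library: Ptgds (0.0106 CPM) and Prm2, a sperm protamine (0.0531 CPM), in knock-in 2, and Gsta1, a glutathione transferase (0.011 CPM), in knock-in 3.

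Atp9a was flagged because its genotype change differed between old IFN-γ males and females by −2.41 on the log2 scale (edgeR interaction term, adjusted p = 0.0129). Among the males labelled old and IFN-treated, all 5 knock-in libraries lay below all 5 wild-type libraries.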

How the results depend on the processing

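The calls depend on how libraries are counted. Beside 869 genes higher and 442 lower, upper-quartile factors gave 382 higher and 551 lower, no filter on low counts 379 and 144, and a filter at 1 CPM 575 and 910, where 38.7% of calls were higher. DESeq2 gave 1339 and 786. Fitting only the 10 libraries gave 1883 and 1709 (52.4% higher). With near-identical libraries joined there were 0 and 8, and with only both groups joined 4 and 97, the latter added after the data were seen. Also added then, leaving out wild-type 4 and 5 gave 57 and 15. Leaving out single libraries gave 73 to 818 higher and 48 to 456 lower.

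Within 10 Mb of Lrrk2, 26 genes were called. The count was 16 with upper-quartile factors, 9 without a filter, 42 with only the 10 libraries, 2 with libraries joined in either way or without wild-type 4 and 5, and 3 to 21 with single libraries left out. The interaction by sex had 4 calls, also 4 without knock-in females 4 and 5 (added after the data were seen), 32 by DESeq2 and 0 with libraries joined. By age label DESeq2 gave 1 and by treatment label 89, against 0 each.

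The replicate numbers do not pair the libraries: deviations of same-numbered libraries correlated at −0.33 to 0.37, and no knock-in library correlated best with its own number. With a replicate block over the 10 libraries, 1273 genes were higher and 1373 lower. Irak4 and Slc38a1 were called in every alternative run.

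Without wild-type 4 and 5 the direction of 3 falls turned or went to 0 on the log2 scale: Mgarp 3.02, Insl3 0.70 and Nr5a1 0, none of them passing. Of the 78 called genes among the 93 considered for the text, 8 stayed called with libraries joined. The cause of these shifts was not tested.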
